A study of Homo sapiens with 124 samples.

Results

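Protocadherins are cell-surface proteins of the cadherin superfamily, and their genes lie in the human genome either side by side in an array or alone. The regions described here are the array of PCDHA, PCDHB and PCDHG genes on chromosome 5 and the 8 solitary genes PCDH7, PCDH10, PCDH18, PCDH8, PCDH17, PCDH20, PCDH9 and PCDH15, each with 1 Mb on both sides. Gene family and hg19 position define them, and the rule itself uses no measured value. All bins of 100 kb that overlap an interval belong to its locus, which gave 42 locus bins and 222 bins with the flanks, all of them usable, of 26426 usable bins in all. The intervals were given with the choice of loci, since no hg19 annotation was used here, so exons and introns were not told apart. At PCDH10, PCDH18, PCDH8 and PCDH20 no bin had 50 kb or more inside the interval. The same held for the second bin of PCDH17. Such bins mostly hold other sequence, and the values given for these genes are values of the bins.

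In single-cell DamID the bacterial methyltransferase Dam is fused to LaminB1, a protein of the nuclear lamina on the inside of the nuclear envelope, and DNA near the lamina becomes methylated at GATC motifs in the living cell. Methylated motifs are cut with DpnI, amplified and sequenced. All 124 samples are single cells of 1 group, labelled as haploid (1N) KBM7 cells of clone 14 with a LaminB1 fusion, and 118 of them were analysed. KBM7 is a near-haploid line from a chronic myeloid leukaemia, so a locus is expected once per genome copy rather than on a pair of homologues. Every cell had Dam induced with 0.5 nM of the stabilising ligand Shield1 for 15 h, carried both Fucci cell cycle markers and came from the smallest 2% of such cells. All cells come from 1 clone, and neither a second clone nor cells with unfused Dam enter this comparison.

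The clustered genes encode cadherin-like receptors of which a single neuron uses only a few, and this gives neurons distinct surfaces. PCDH7 and PCDH9 are members of one branch of the delta protocadherins, and PCDH8, PCDH10, PCDH17 and PCDH18 belong to the other branch, with roles in adhesion and migration in the developing nervous system. PCDH15 is a part of the tip links of hair cells in the inner ear. Chromatin at the lamina is in general poor in genes and little transcribed, and genes used in neurons are often found there in cells that are not neurons. RNA was not measured in these samples, so the activity of the genes in KBM7 is not known from these data.

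Because a GATC motif is what Dam methylates, the promoters of 3 of the genes are shown with that motif in capitals. They are the first gene of the array, in the locus with the least contact, and the solitary genes with the least and the most contact, a choice made after the contact values were seen. The sequences run 5′ to 3′ on the gene's strand over 300 bases that take in the start and mostly lie upstream of it, from RefSeq on GRCh38.p14, which is not the build of the bins. PCDHA1 is at chr5:140785890-140786189 on the plus strand, PCDH8 at chr13:52848591-52848890 and PCDH18 at chr4:137532445-137532744, both on the minus strand.
PCDHA1: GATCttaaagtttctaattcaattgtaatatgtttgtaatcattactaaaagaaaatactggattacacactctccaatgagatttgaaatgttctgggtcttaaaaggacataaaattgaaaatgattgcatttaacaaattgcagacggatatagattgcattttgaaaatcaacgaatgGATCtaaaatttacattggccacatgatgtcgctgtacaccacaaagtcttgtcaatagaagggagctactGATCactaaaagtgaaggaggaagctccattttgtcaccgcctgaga
PCDH8: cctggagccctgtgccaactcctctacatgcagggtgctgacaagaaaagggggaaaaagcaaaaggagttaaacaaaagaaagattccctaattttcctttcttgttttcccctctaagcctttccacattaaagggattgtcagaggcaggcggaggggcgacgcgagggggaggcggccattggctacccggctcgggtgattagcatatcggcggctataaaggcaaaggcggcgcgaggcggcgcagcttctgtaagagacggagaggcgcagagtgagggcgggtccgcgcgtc
PCDH18: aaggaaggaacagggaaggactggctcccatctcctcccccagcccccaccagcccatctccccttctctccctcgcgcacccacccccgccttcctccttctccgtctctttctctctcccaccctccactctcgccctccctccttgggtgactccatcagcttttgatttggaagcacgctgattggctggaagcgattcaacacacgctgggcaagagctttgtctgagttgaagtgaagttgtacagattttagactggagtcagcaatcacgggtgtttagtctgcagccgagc

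GATC reads the same on both strands. The PCDHA1 window held 3 such motifs and had a GC content of 34.0%, and those of PCDH8 and PCDH18 held none at 56.7 and 57.0%. Of 52 promoters of 47 clustered genes in the table, 29 (55.8%) held a GATC, with a median GC content of 40.7%. For the solitary genes, 5 of 7 promoters of 6 genes held one, with a median GC content of 56.7%, and PCDH10 and PCDH20 had no entry. Over all 35116 promoters, 41.7% held a GATC and the median GC content was 58.7%. These shares describe promoter windows only, and a bin of 100 kb holds far more sequence than a promoter. The GATC content of the bins was not measured, and whether it goes with contact was not tested.

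A bin was counted as in contact with the lamina in a cell if its ratio of observed to expected reads was 1 or more. For a bin, the contact frequency gives how many percent of the 118 cells were in contact there, and the contact share of a locus in a cell is the percentage of its bins in contact. Recovered reads per cell ran from 28372 to 385661 with a median of 135782.5, and a ratio of 1 stood for a median of 5.63 reads per bin, and for under 3 reads in 14 cells. A cell had 33.0% ± 5.47 of its usable bins in contact (SD, n = 118). The cells fall into 90 numbered 1 to 94 and 28 numbered 96 to 124, which differed in contact share (31.9 and 36.5%). That split was seen only in the data and is not explained by a label, so values are also given within each set. Because no cultures are named and there is 1 group, cells were not taken as replicates of a condition and no p-value was made. Intervals are exact Clopper-Pearson intervals at 95% and cover the counting of cells only.

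The solitary genes and the array differed in how often they met the lamina. Of the 34 bins of solitary genes, 8 were in contact in 80% or more of cells, 25 in 20 to under 80%, and 1, the PCDH8 bin, in under 20%. Of all usable bins, 15.1% were at 80% or more, 33.9% at 20 to under 80%, 28.8% above 0 and under 20%, and 22.3% at 0%. The mean contact frequency over the solitary bins was 67.2%, against 33.0% over all bins. The 160 flank bins of the solitary genes had a mean of 59.5%. Of these flank bins 24.4% were at 80% or more, against 23.5% of the bins of the genes. High contact was thus largely shared with the surroundings. PCDH9 and PCDH15 gave 11 of the 34 bins each. All 8 bins of the array were above 0 and under 20%, with a mean of 4.45%. PCDH15 gave 6 of the 8 bins at 80% or more, and PCDH18 and PCDH20 gave 1 each. The count of 8 depended on the limits, with 22 locus bins at 80% or more if a ratio of 0.5 counted as contact, 3 if cells were thinned to 50000 reads and 0 if a ratio of 2 was required. Bins of one gene are neighbours and are not independent of each other.

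**Figure D1:**
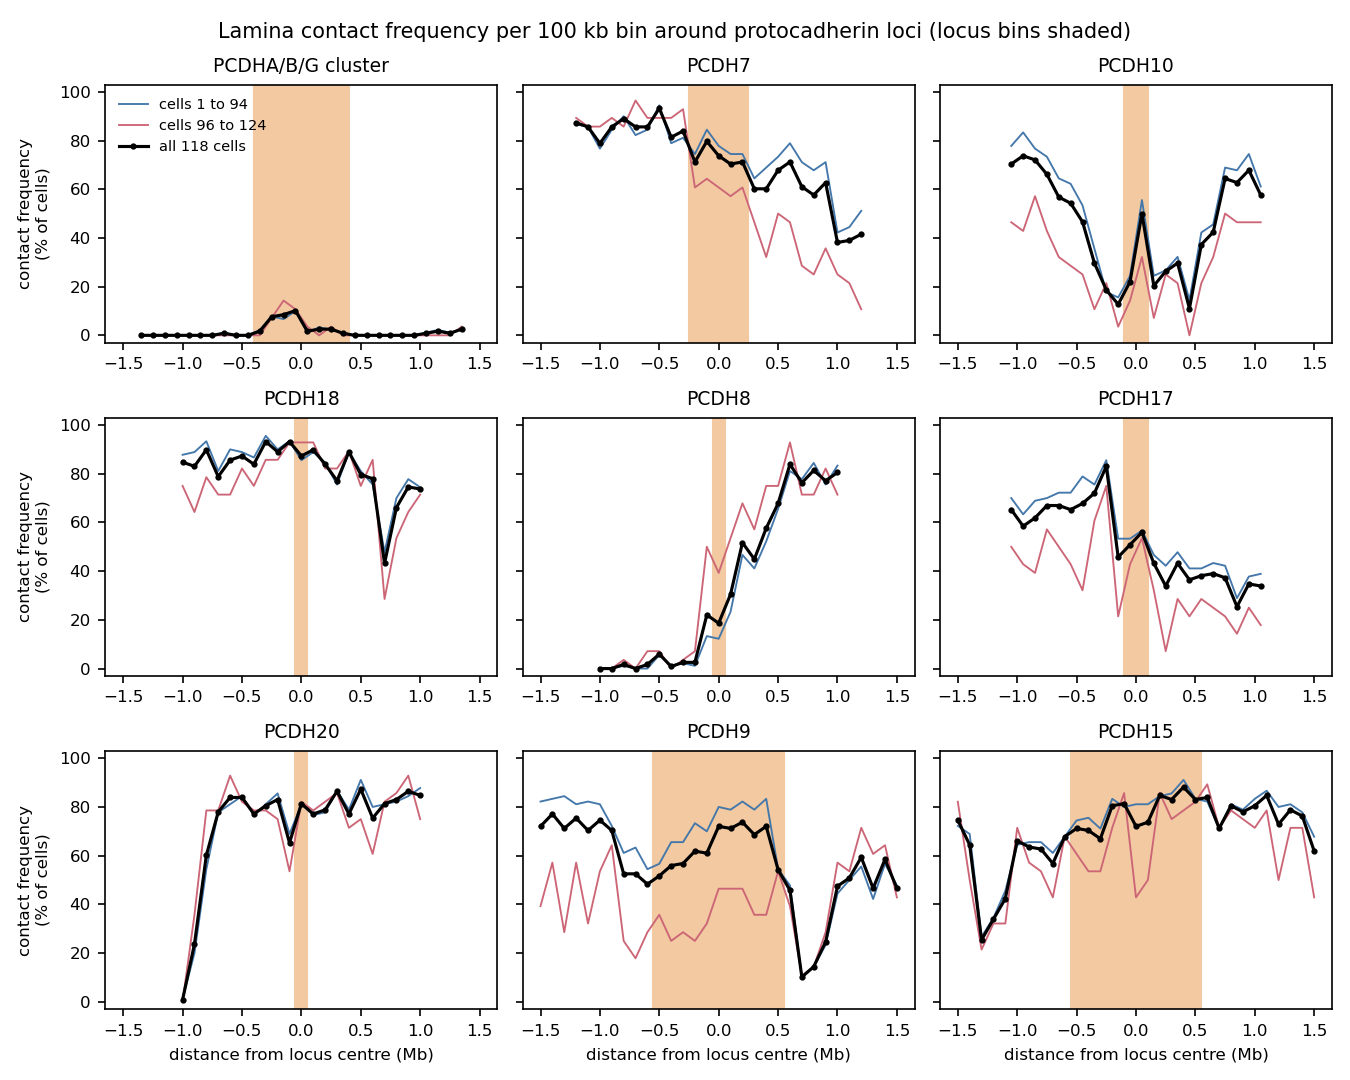
Contact frequency (vertical axis, percent of cells) of each 100 kb bin by its distance from the centre of the locus (horizontal axis, Mb), 1 panel for each of the 9 loci, with locus bins shaded. Black is all 118 cells, blue cells 1 to 94 and red cells 96 to 124. Over all cells the array stays at or below 10.2%, PCDH18 and PCDH20 lie on plateaus, and PCDH8 lies on a slope. The second bin of PCDH10 is a narrow peak of 50.0%.

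The PCDHA/B/G array (chr5:140100001-140900000) was away from the lamina in most cells. It holds 53 protein-coding protocadherin genes in RefSeq, 15 PCDHA, 16 PCDHB and 22 PCDHG, together with SLC25A2, a mitochondrial transporter, and TAF7, a subunit of the general transcription factor TFIID. Its mean ratio per cell ran from 0 to 1.71 with a median of 0.0741, and 33 cells had no read in it. No bin was in contact in 100 cells, and at least 1 bin in 18 (15.3%, 9.30 to 23.0%). The contact share was 4.45% ± 13.4 (SD, n = 118), which was 33.9 points ± 13.7 below that of chromosome 5 in the same cells, and below it in 115 of 118 cells. Cells 1 to 94 had 4.31% and cells 96 to 124 had 4.91%.

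The array nevertheless stood above its surroundings. The 10 bins to its left had a mean contact share of 0.0847% and the 10 to its right 0.593%, and 15 of these 20 bins were in contact in no cell, where a limit of 3 cells allows a frequency of up to 2.54% and the exact interval reaches 3.08%. The array exceeded its flanks in 18 cells and was below them in 3, by 4.11 points ± 12.4 (SD, n = 118), while 97 cells had equal values. ZMAT2 is the nearest gene on the left and DIAPH1, which encodes an actin-nucleating formin, on the right.

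Within the array, contact was unevenly spread. The first bin was in contact in 1.69% of cells, and the next 3 in 7.63, 8.47 and 10.2%. Contact fell to 1.69% in the bin after that, and the last 3 bins had 2.54, 2.54 and 0.847%. The highest bin (chr5:140400001-140500000) was in contact in 12 cells, of which 10 had no contact in the next bin. The contact bins gathered in few cells, as 10 cells with 2 or more bins held 34 of the 42 contact bins over all cells. Cell 77 had 7 of 8 bins in contact as 1 run of 0.7 Mb, with 90 reads in the array, and cell 50 had 6 bins with 104 reads. The other 16 cells had 3 or fewer bins. The 18 cells with contact and the rest had median totals of 135641.5 and 135782.5 reads, and mean contact shares over the genome of 33.8 and 32.8%. Some of the 18 rested on few reads. Cell 43, with 28372 reads in all, had 2 in the array, and cell 56 had 6.

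Chromosome 4 carries 3 of the solitary genes, and its contact share per cell was 46.2% ± 8.67 (SD, n = 118). PCDH7 (chr4:30700001-31200000) is a large gene with ARAP2 as the next protein-coding gene on the right. Its mean ratio over 5 bins ran from 0 to 6.99 with a median of 1.82 over cells. All 5 bins were in contact in 51 cells, some in 55 and none in 12. The contact share was 73.2% ± 32.0, with bins between 70.3 and 79.7%. PCDH7 was above chromosome 4 as a whole in 100 cells, by 27.0 points ± 30.0.

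PCDH7 lay between a higher left and a lower right flank. The left flank had a contact share of 85.6%, and its bin at chr4:30400001-30500000 was the highest of the region at 93.2%. The right flank had 55.9%, with its lowest bin at chr4:31900001-32000000 at 38.1%. The left flank exceeded the right in 85 cells and was below it in 10, by 29.7 points ± 37.0. In cells 96 to 124 the frequency went from 92.9% in the last left bin to 60.7% in the first bin of the gene, and in cells 1 to 94 from 81.1 to 74.4%. The gene's own contact share was 77.1% for cells 1 to 94 and 60.7% for cells 96 to 124.

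PCDH10 (chr4:134000001-134200000) had a narrow peak within a trough, in the second of its 2 bins. Neither bin had 50 kb or more inside the gene's interval, and most of the second lies outside it. The mean ratio of the locus over 2 bins ran from 0 to 12.5 with a median of 0.717. The bins were in contact in 22.0 and 50.0% of cells, and 16 cells had no read in either. The 2 bins before the gene were at 18.6 and 12.7% and the bin after it at 20.3%. Of the 59 cells in contact at the second bin, 36 were not in contact at the next bin to the right. The reverse was found in 1 cell. The lowest bin of the region, chr4:134500001-134600000, was in contact in 11.0% of cells. Among 44 cells with contact within 3 bins on both sides of that bin, 34 had none at the bin itself.

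The contact share of PCDH10 was 36.0% ± 38.6 (SD, n = 118), with 40.0% in cells 1 to 94 and 23.2% in cells 96 to 124. It was below its 1 Mb flanks by 10.0 points ± 27.7, lower in 74 cells and higher in 36. Against flanks of 0.5 Mb, which cover mainly the trough, it was above them by 7.37 points. Its neighbour on the right, PABPC4L, is the single protein-coding gene in RefSeq between PCDH10 and PCDH18.

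PCDH18 (chr4:138400001-138500000) had the highest mean contact share of the 9 loci. Its 1 bin had a ratio of 0 to 9.67 with a median of 2.07, and was in contact in 103 of 118 cells (87.3%, 79.9 to 92.7%). The frequency was 85.6% for cells 1 to 94 and 92.9% for cells 96 to 124. It lay on a plateau, with contact shares of 86.9% in the left and 75.5% in the right flank. The bins next to it on the left and right were at 93.2 and 89.8%, both above its own 87.3%. PCDH18 exceeded its 1 Mb flanks by 6.10 points ± 26.1, higher in 70 cells and lower in 13. A locus of 1 bin that is in contact cannot be below its flanks, so these counts largely restate its frequency. The difference was 2.56 points ± 27.7 (SD, n = 90) in the first set and 17.5 ± 16.2 (SD, n = 28) in the second, and over all cells it was 19.7 points with flanks of 2 Mb and 0.678 with flanks of 0.5 Mb. The plateau was broken at chr4:139100001-139200000, on the side of SLC7A11, a cystine transporter gene, where 43.2% of cells were in contact. Of 100 cells with contact within 3 bins on both sides there, 50 lacked it at that bin.

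The 4 solitary genes of chromosome 13 lie within a region of few other genes. RefSeq lists 7 protein-coding genes between PCDH8 and PCDH17, 2 between PCDH17 and PCDH20 and 2 between PCDH20 and PCDH9. The contact share of the chromosome was 38.9% ± 9.51 (SD, n = 118). PCDH8 was below this value and the other 3 above it.

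PCDH8 (chr13:53400001-53500000), whose protein is known from synapses, sat at the foot of a slope. Its ratio ran from 0 to 5.35 with a median of 0.143, and 52 cells had no read in its bin. It was in contact in 22 cells (18.6%, 12.1 to 26.9%). The left flank, towards CNMD, a gene for a cartilage protein, had a contact share of 3.73%, and the right flank, towards OLFM4, 65.2%. The right flank exceeded the left in 108 cells and was below it in none, by 61.4 points ± 28.6. The frequency rose from 2.54% in the bin at chr13:53200001-53300000 to 83.9% in the bin at chr13:54000001-54100000. PCDH8 was in contact in 11 of 90 cells numbered 1 to 94 (12.2%) and in 11 of 28 numbered 96 to 124 (39.3%). The bins to its left and right had 13.3 and 50.0%, and 23.3 and 53.6%. Of the 180 flank bins of all loci, these 2 were at least 30 points higher in cells 96 to 124, as were 3.73% of all usable bins. At least 30 points lower were 20 flank bins, 6 at PCDH7, 5 at PCDH10, 5 at PCDH9, 3 at PCDH17 and 1 at PCDH15, as were 0.935% of all usable bins.

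PCDH17 (chr13:58200001-58400000) lay just past an edge. Its mean ratio ran from 0 to 6.47 with a median of 1.11. Both bins were in contact in 52 cells, 1 bin in 22 and none in 44, and the contact share was 53.4% ± 45.2. The left flank had 65.3% and the right flank, towards DIAPH3, 36.5%. The largest step was before the gene, from 83.1% at chr13:58000001-58100000 to 45.8% in the next bin. At this step 46 cells were in contact on the left only, and 2 on the right only. The gene's 2 bins were at 50.8 and 55.9%, between the flanks, and the lowest bin, chr13:59100001-59200000, was at 25.4%.

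PCDH20 (chr13:61900001-62000000) was in contact in 96 cells (81.4%, 73.1 to 87.9%). Its ratio ran from 0 to 8.74 with a median of 2.01. The flanks had 63.6% on the left, on the side of TDRD3, and 81.8% on the right. The left flank took in an edge close to 1 Mb away, where the bin at chr13:60900001-61000000 was in contact in 1 cell (0.847%) and the next 2 in 23.7 and 60.2%. PCDH20 was above its flanks by 8.64 points ± 29.3, but by 0.275 points after thinning to 50000 reads, by 1.69 with flanks of 0.5 Mb and by 22.5 with flanks of 2 Mb. The bin next to it on the left was at 65.3%. The frequency was 81.1% for cells 1 to 94 and 82.1% for cells 96 to 124.

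PCDH9 (chr13:66800001-67900000) is one of the long genes of the family and covered 11 bins. Its mean ratio ran from 0 to 7.67 with a median of 1.85. All bins were in contact in 26 cells, some in 80 and none in 12, and the contact share was 63.6% ± 35.1. Along the gene the frequency ran from 51.7% in the first bin to 73.7% in the eighth, at chr13:67500001-67600000. To the right, towards KLHL1, it fell from 54.2% in the last bin to 45.8% and then to 10.2% at chr13:68000001-68100000. At that last step 44 cells were in contact on the left only, and 2 on the right only. Of 62 cells with contact within 3 bins on both sides of the lowest bin, 51 had none at the bin itself, in which 61 of 118 cells had no read. The dip was at 10.0% for cells 1 to 94 and 10.7% for cells 96 to 124.

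PCDH9 was the locus with the widest gap between the 2 sets of cells. Its contact share per cell ran from 0 to 100% with a median of 81.8% in cells 1 to 94, and from 0 to 90.9% with a median of 27.3% in cells 96 to 124. The means were 71.7% ± 32.5 (SD, n = 90) and 37.3% ± 30.5 (SD, n = 28). The ranges overlapped over nearly their whole length. All bins were in contact in 26 of 90 cells of the first set and in none of the 28 of the second. In 9 of its 11 bins the frequency was at least 30 points lower in cells 96 to 124, as in 0.935% of all usable bins. Genome-wide the opposite direction was the more common one. PCDH15 had 2 of 11 such lower bins, and no other locus bin differed by 30 points in that direction. PCDH9 exceeded its flanks by 14.8 points in cells 1 to 94 and fell short of them in cells 96 to 124, with a difference of -4.98 points. Which step of the experiment or state of the cells goes with the sample number was not tested.

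PCDH15 (chr10:55500001-56600000) stood out from its chromosome. The contact share was 29.5% ± 8.65 for chromosome 10, and for the gene it was 77.7% ± 26.7 (SD, n = 118), which was higher in 110 cells, by 48.3 points ± 25.5. Its mean ratio ran from 0 to 6.16 with a median of 1.94. All 11 bins were in contact in 36 cells, some in 78 and none in 4. The frequency was lowest in the third bin, with 66.9%, and highest at chr10:56400001-56500000, with 88.1%. The left flank, towards MBL2, a gene for a lectin of innate immunity, had 55.8%, and the right flank, towards ZWINT, 76.9%. The lowest bin of the region was chr10:54700001-54800000 with 25.4%. Of 82 cells with contact within 3 bins on both sides of it, 53 lacked contact at the bin. PCDH15 was above its flanks by 11.4 points ± 18.0, in 85 cells, and below them in 25. With flanks of 0.5 and 2 Mb the difference was 6.63 and 4.54 points. The contact share was 81.0% for cells 1 to 94 and 67.2% for cells 96 to 124.

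For the 6 solitary genes with a strand in the promoter table, the flank on the side of the start was compared with the flank beyond the end. The upstream flank had the higher mean contact share for 4 genes, PCDH7, PCDH8, PCDH17 and PCDH15, by 21.1 to 61.4 points. The downstream flank was higher for PCDH18 and PCDH9, by 11.4 and 26.0 points. The side of the higher flank was thus not the same for all genes relative to transcription.

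**Figure D2:**
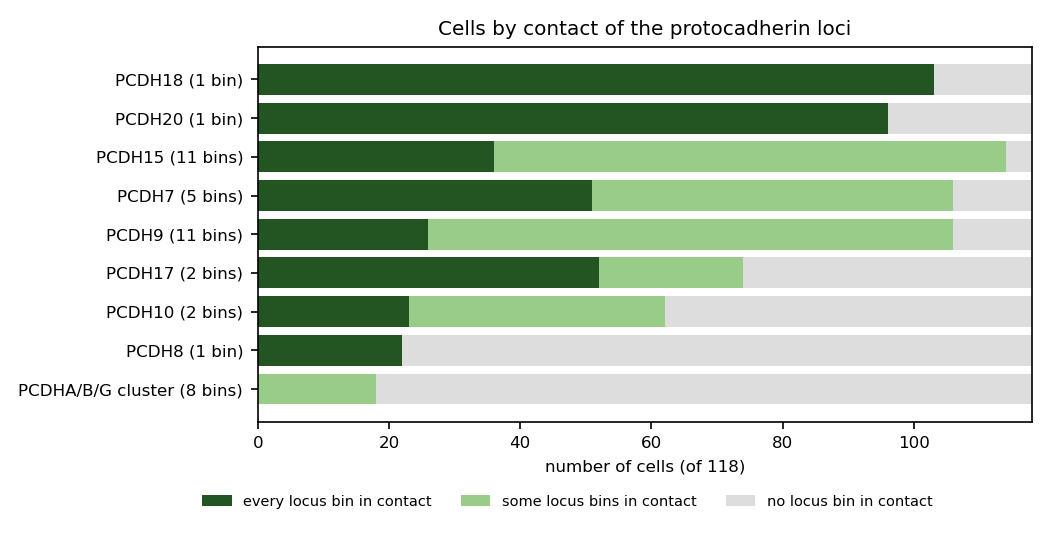
Number of cells (horizontal axis, of 118) in which every bin (dark green), some bins (light green) or no bin (grey) of a locus was in contact, for the 9 loci in order of mean contact share. PCDH18 was in contact in 103 cells, and the array had no cell with every bin in contact and 18 with some. A locus of 1 bin can only be in contact or not, so the light part needs 2 or more bins.

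By mean contact share the loci ran from PCDH18 through PCDH20, PCDH15, PCDH7, PCDH9, PCDH17, PCDH10 and PCDH8 to the array. Differences between neighbours in this order were smaller than the SD between single cells, while the counts of cells were more one-sided for some neighbours than for others. PCDH18 exceeded PCDH20 by 5.93 points ± 47.7 within a cell, higher in 17 cells and lower in 10. PCDH20 exceeded PCDH15 by 3.62 points ± 40.2, higher in 65 cells and lower in 20, and a locus of 1 bin can only be at 0 or 100%. PCDH15 exceeded PCDH7 by 4.51 ± 40.1, with 54 cells against 48, and PCDH7 exceeded PCDH9 by 9.66 ± 34.9, with 59 against 35. PCDH9 exceeded PCDH17 by 10.2 points ± 48.2 over all cells, with 46 cells against 44, but in cells 96 to 124 it was lower by 10.9 points. PCDH17 exceeded PCDH10 by 17.4 points ± 45.5, with 48 cells against 18. PCDH10 exceeded PCDH8 by 17.4 points ± 57.9, with 53 cells against 19, and was lower by 16.1 points in cells 96 to 124. PCDH8 exceeded the array by 14.2 points ± 42.3, higher in 22 cells and lower in 15. Of all 36 pairs of loci, 21 had the same locus higher in at least 80% of the cells in which they differed. The array minus PCDH18 gave -82.8 points ± 35.3.

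At a contact value of 1, contact over the solitary genes was mostly part of longer runs of bins in contact. In cells with contact at PCDH18 the run that touched the gene had a median length of 2.5 Mb and reached 6.4 Mb in cell 83, and the median was 1.75 Mb for PCDH20 and 1.5 Mb for PCDH15. PCDH7 had a median of 1.4 Mb and the longest run of all loci, 9.1 Mb in cell 84. PCDH8 was in contact in few cells, but its runs had a median of 1.25 Mb. PCDH17 had 0.95 Mb and PCDH9 0.8 Mb. PCDH10 had 0.2 Mb, and the array 0.1 Mb. At a contact value of 2 the medians were 0.5 Mb at PCDH18, 0.4 Mb at PCDH9 and 0.2 Mb at PCDH8. They were 0.3 Mb at PCDH7, PCDH17, PCDH20 and PCDH15, and 0.1 Mb at PCDH10 and the array. No run length for other regions of the genome is given here. A single run covered the whole locus in 409 of 1062 combinations of a locus and a cell. At loci of 1 bin any contact counts as such a run, which gave 103 cells at PCDH18, 96 at PCDH20 and 22 at PCDH8. The whole of PCDH15 was covered in 36 cells and the whole of PCDH9 in 26, or in 72 and 42 cells if gaps of 1 bin were bridged.

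Without bridging, median runs were shorter in cells 96 to 124 at all 8 solitary genes, though by 1 bin only at PCDH10 and PCDH8. The medians for cells 1 to 94 and for cells 96 to 124 were 3.1 and 1.3 Mb at PCDH18, 2.6 and 1.2 Mb at PCDH20, 1.2 and 0.2 Mb at PCDH17 and 1 and 0.3 Mb at PCDH9. With gaps of 1 bin bridged, these differences closed or turned at some genes and remained at others. The medians were then 3.3 Mb in both sets at PCDH20, 3.2 and 4.4 Mb at PCDH8 and 0.3 and 0.35 Mb at PCDH10. PCDH9 had 2.75 and 0.55 Mb and PCDH17 3.05 and 0.5 Mb. PCDH18 had 4.6 and 3.2 Mb, PCDH15 4.5 and 3.6 Mb and PCDH7 4 and 3.8 Mb. At a contact value of 0.5, PCDH8 had 2.65 and 3.15 Mb.

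The height of the ratio in the cells in contact did not rank the loci as the contact share did. Its median over cells in contact, and then over the bins of a locus, was 2.39 for PCDH9, 2.27 for PCDH7, 2.21 for PCDH18 and 2.20 for both PCDH20 and PCDH15. It was 1.88 for PCDH17, 1.67 for PCDH10 and 1.30 for PCDH8. The 3 bins of the array with contact in 5 or more cells had 1.45. All usable bins with contact in 5 or more cells had medians of 1.45 under a frequency of 20%, 1.99 at 20 to under 80% and 2.50 at 80% or more. PCDH9 was highest here but below PCDH18, PCDH20, PCDH15 and PCDH7 by contact share, and PCDH8 was below the array. These gaps were small beside the SD, which was 1.07 at PCDH9, 1.28 at PCDH18, 0.954 at PCDH8 and 0.839 at the array. The mean ratio over all cells was highest at PCDH18 (2.27) and lowest at the array (0.176), as was the contact share. The array was at the level of rarely contacted bins. PCDH9 and PCDH7, whose bins all belong to the middle class, were both above the level of that class. Their bins lay in its upper part, at 51.7 to 73.7% for PCDH9 and 70.3 to 79.7% for PCDH7. The level was higher in classes of higher frequency, and none at matched frequency is given.

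A cell had 4.86 ± 1.45 of the 8 solitary genes in contact (SD, n = 118), counting a gene if over 50% of its bins were. The number ran from 1, in cells 90 and 115, to 8, in cells 3, 29 and 64, and was 5 in 39 cells. It went with the contact share of the cell over the genome, with r = 0.329 and rho = 0.303 over 118 cells, given as a description. Cells 1 to 94 had a mean of 4.99 and cells 96 to 124 a mean of 4.43, while the latter had the higher contact share over the genome.

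Whether 2 loci were in contact in the same cells was described by Pearson's r of their contact shares over the 118 cells, after the cell's contact share over the genome had been removed by regression. Cells share the clone and the procedure, and they differ in depth. The 7 pairs on 1 chromosome within 20 Mb had a mean r of 0.0951, from -0.164 to 0.296, and the 27 pairs on different chromosomes had a mean of 0.0403, from -0.265 to 0.490. Of the 36 pairs, 15 had an r within 0.1 of 0, and 8 were more than 0.2 from 0. The 2 means were 0.129 and 0.0277 in cells 1 to 94, 0.0159 and 0.0184 in cells 96 to 124, and 0.189 and 0.0441 at a contact value of 0.5.

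**Figure D3:**
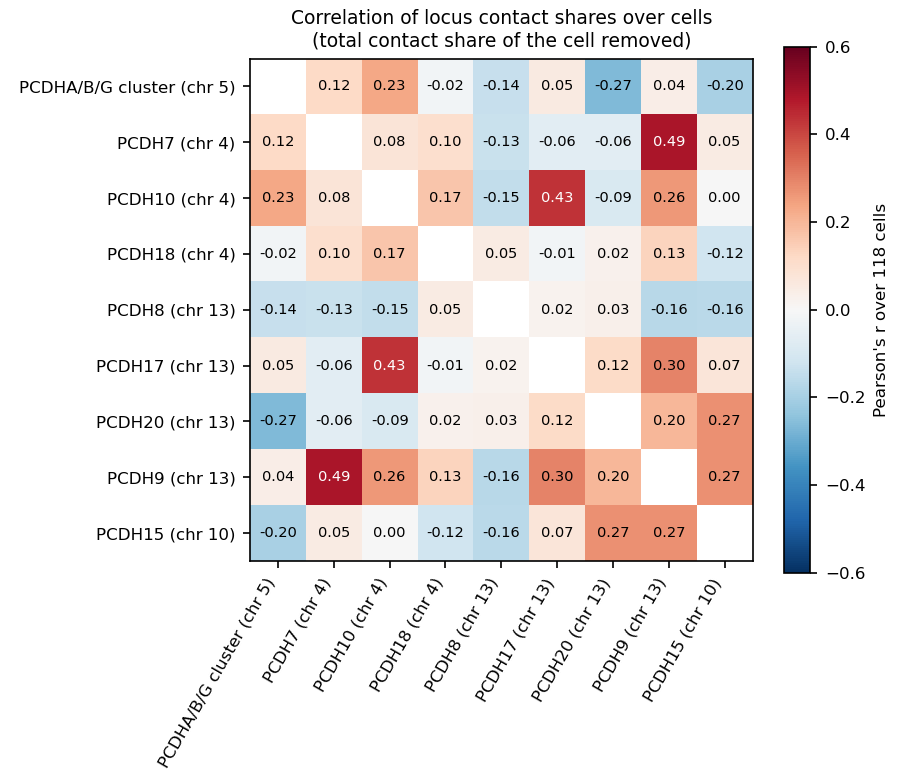
Pearson's r over 118 cells between the contact shares of each pair of the 9 loci (rows and columns, with chromosome), after removal of the cell's contact share over the genome. The colour scale runs from -0.6 to 0.6, and the highest values are those of PCDH7 with PCDH9 (0.490) and of PCDH10 with PCDH17 (0.433).

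The 2 highest values were both between chromosomes 4 and 13. PCDH7 and PCDH9 had r = 0.490, with 0.350 in cells 1 to 94 and 0.620 in cells 96 to 124. PCDH9 had a contact share of 25.0% ± 34.7 in the 12 cells without contact at PCDH7, of 59.3% ± 34.0 in the 55 cells with some of its bins in contact, and of 77.2% ± 28.5 in the 51 cells with all of them. No bin of PCDH9 was in contact in 6 of those 12 cells and in 2 of the 51. PCDH10 and PCDH17 had r = 0.433, with 0.475 and 0.265 in the 2 sets. By comparison, among 1909085 pairs of 0.5 Mb windows on different chromosomes with a mean frequency of 20 to under 80%, r was at least as high as for PCDH7 and PCDH9 in 359 (0.0188%) and as for PCDH10 and PCDH17 in 1044 (0.0547%). These 2 pairs were singled out as the highest of the 36, and the loci differ in length from the windows. The comparison with windows used all 118 cells together, and none is given within a set of cells. PCDH7, PCDH9, PCDH10 and PCDH17 all had a lower mean contact share in cells 96 to 124. For PCDH7 it was 60.7 against 77.1%, and for PCDH9 37.3 against 71.7%. Such a shared difference between the sets is part of r over all cells.

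**Figure D4:**
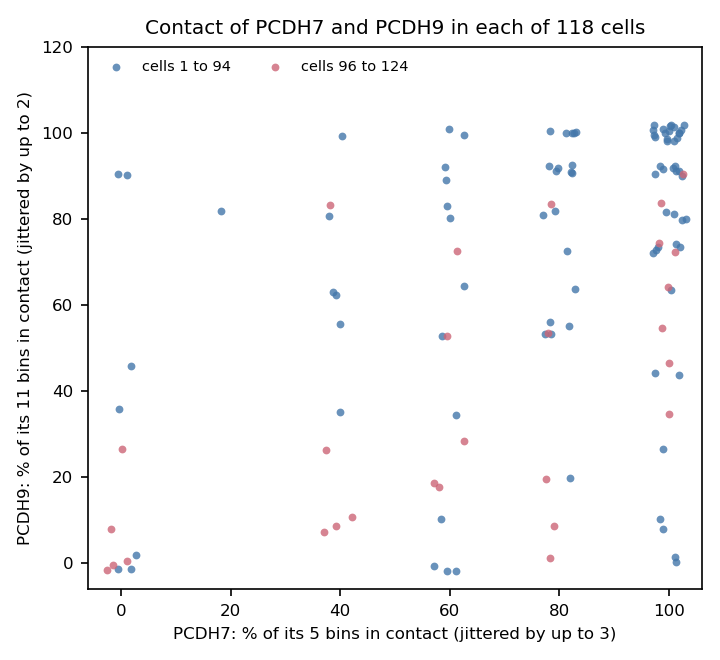
Contact share of PCDH9 (vertical axis, percent of 11 bins) against that of PCDH7 (horizontal axis, percent of 5 bins) in each of 118 cells, with points jittered by up to 2 and 3 points so that equal values can be seen. Blue is cells 1 to 94 and red cells 96 to 124. Of the 51 cells with all of PCDH7 in contact, 42 had over 50% of PCDH9 in contact, against 2 of the 12 cells with none.

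The locus most like each one in this measure was PCDH9 for PCDH7 and PCDH15, PCDH7 for PCDH9, PCDH17 for PCDH10, PCDH10 for PCDH17, PCDH18 and the array, PCDH15 for PCDH20, and PCDH18 for PCDH8. PCDH15 with PCDH9 had r = 0.274, and PCDH20 with PCDH15 0.272. The array had 0.233 with PCDH10, and PCDH18 had 0.167 with PCDH10. PCDH8 had 0.0478 with PCDH18, so no other locus followed it. On chromosome 13, PCDH17 and PCDH9 had r = 0.296, but 0.423 in cells 1 to 94 and -0.0670 in cells 96 to 124. All 9 loci had a higher r with one of their own flanks than with any other locus. With the same removal, r with the left flank was 0.825 for PCDH9, and r with the right flank was 0.784 for PCDH15 and 0.700 for PCDH10, and the lowest such value was 0.519, for PCDH8 with its left flank. For the array it was 0.566 with its left flank, where only 1 cell had any contact. In both flanks of the array together 5 cells had contact, and 100 cells had none at the array itself. The r values of the array thus rest on few cells.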

How the data were processed

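LaminB1 DamID was measured in single haploid KBM7 cells of clone 14, which form 1 group. The authors deposited 1 table with the ratio of observed to expected reads in each bin of 100 kb and cell, a unit taken from the name and values of the table. How the expected part was made is not described in the labels. Per the submitters' processing notes, cutadapt, Bowtie2 2.1.0 and hg19 were used. For other steps, none of the sources used here gives a description. Of 124 labelled cells, 118 have a column and 6 were not analysed here. Of 30376 bins, 26426 were usable, which means numbers in all cells and at least 1 value above 0, and all bins of the loci were among them.

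Whole reads were recovered because every value above 0 was a whole number times a step of its bin and a step of its cell, and 100% of 1697706 values came out whole within 0.02 reads, a step tested on simulated data. Read counts of PCR products are not independent molecules. Contact, contact frequency and contact share were computed in Python 3.11.15 with numpy 2.4.6, pandas 2.3.3 and scipy 1.17.1. Bins belonged to a locus if they overlapped its interval at all, and flanks were the usable bins within 1 Mb on each side. A count of 0 cells was taken to allow up to 3 cells. No test was run, since cells of 1 group with no cultures named are not replicates of a condition. The members and lists were chosen with earlier results of these data known.

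All 9 loci are named whatever their values, as are the highest and lowest bin of each region and the cells highest or lowest in a measure. The largest step between bins, the limit of 30 points between the sets of cells, and the 0.5 Mb windows were chosen after values were seen. Gene order, strands and promoters are from RefSeq on GRCh38.p14 and were not placed on the hg19 bins. Other protocadherin and large cadherin genes were not placed. Alternatives were other contact values, thinning to 50000 reads, other cells, other flanks and other limits.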

Additional observations from a re-analysis of the deposited data

How the results depend on the processing

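Of 397 values under alternatives, 347 did not turn sign and stayed within 1 SD between cells, or within 1.5 times for counts, 38 moved further and 12 changed sign. This rule was wide, because single cells differ much from each other, and a contact share cannot turn sign. PCDH7, with a contact share of 73.2%, had 42.9% at a contact value of 2 and still counted among the 347. Differences between a gene and its flanks that were small beside their SD changed sign most often. For PCDH7 the difference, 2.46 points with all reads and flanks of 1 Mb, was -0.229 points when cells were thinned to 50000 reads and -1.78 with flanks of 0.5 Mb, and it was 0 in cells 96 to 124 and with flanks of 2 Mb. For PCDH10 it was 7.37 with flanks of 0.5 Mb. For PCDH17, also at 2.46, it was -6.31 at a contact value of 2, -0.550 after thinning, -1 in cells 1 to 94 and -0.0847 with bins of which at least 50 kb were inside, and for PCDH9 -4.98 in cells 96 to 124. Among differences between loci, PCDH10 minus PCDH8 was -16.1, PCDH8 minus PCDH9 1.95 and PCDH17 minus PCDH9 10.9 in cells 96 to 124, and a contact value of 0.5 made PCDH20 minus PCDH15 -0.847. The number of locus bins at 80% or more, 8 of 42, was 22 at a contact value of 0.5, 0 at 2, 3 after thinning, 14 in cells 1 to 94, 5 in cells 96 to 124 and 0 with a limit of 90%. Over all usable bins the share at 80% or more was 26.8% at a contact value of 0.5, 0.0946% at 2, 9.65% after thinning, 16.1 and 16.2% in the 2 sets, and 1.94% past 90%. The share of locus bins was thus below that of all bins after thinning (7.14%), at a contact value of 2, past 90% and in cells 96 to 124 (11.9%). With 0.5 as the contact value, 14 locus bins were at 20 to under 80%, and at 2 and in cells 96 to 124, 3 were at 0%. At 2 the contact share was lower at every locus. It was 55.9% at PCDH18, 50.8% at PCDH20, 43.6% at PCDH15, 42.9% at PCDH7 and 41.4% at PCDH9. For PCDH17 it was 21.6%, for PCDH10 14.0%, for PCDH8 3.39% and for the array 0.953%. At the same value, whole loci were covered by 1 run in 174 combinations. The cause was not tested. PCDH7 with PCDH9 had r between 0.350 and 0.620 over its alternatives, and PCDH10 with PCDH17 between 0.243 and 0.475; thinning and the limit on reads were added for these after seeing the data. Loci in which no bin had 50 kb inside the interval gave no value for that choice. No paired analysis was possible because there is 1 group and its numbers only name cells.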

Other observations

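Windows of 0.5 Mb on other chromosomes that shared their cells of contact with a solitary gene were listed after the values of the loci were seen, among 1833 to 1926 windows with a mean frequency of 20 to under 80%. For PCDH7, the 2 windows with the highest r of all 1833 off chromosome 4 overlapped PCDH9, at chr13:67000001-67500000 with r = 0.475 and at chr13:67500001-68000000 with r = 0.453. The last bin of the second lies in the right flank of PCDH9. All other bins of these windows are bins of PCDH9 itself, so the values largely restate the r of 0.490 between the 2 genes. The values were 0.332 and 0.333 in cells 1 to 94, and 0.570 and 0.549 in cells 96 to 124.

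In the other direction, the third window for PCDH9 lay in the right flank of PCDH7, at chr4:31500001-32000000, with r = 0.552. Windows on chromosome 1 (r = 0.559) and chromosome 11 (r = 0.556) were ahead of it, and 28 windows of 1926 had an r over 0.4 with PCDH9, so PCDH7 was not its sole partner.

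PCDH10 and PCDH17 had the same window first, chrX:145500001-146000000, with r = 0.529 and 0.570 over all cells and 0.279 and 0.208 in cells 96 to 124. PCDH18, PCDH8 and PCDH20 had no window with an r over 0.4.

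The mean ratio of a locus and its contact frequency did not always differ the same way between the sets of cells. At PCDH18 the mean ratio was 2.38 for cells 1 to 94 and 1.93 for cells 96 to 124, while the frequency was 85.6 and 92.9%. At PCDH20 it was 2.17 and 1.88, with frequencies of 81.1 and 82.1%. At PCDH9 it was 2.21 and 0.910, and at the array 0.159 and 0.230.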
